A study of Homo sapiens with 6 samples.

Results

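Cholesterol and fatty acid synthesis genes were followed in U251 cells, an established human glioblastoma line that the labels call U251MG, by bulk RNA-sequencing of cells with and without targeting of NUAK2. The members are 30 genes chosen by name for their place in these pathways, matched by gene identifier among the 28395 genes of the count table. They comprise 7 genes of the mevalonate and isoprenoid steps, 3 of the squalene and lanosterol steps, 8 that turn lanosterol into cholesterol, 5 that regulate the pathway through SREBP or move sterols, and 7 of fatty acid synthesis, elongation and desaturation.

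The comparison was between WT cells (3 libraries) and cells called NUAK2-CR (3 libraries), which were made with CRISPR-Cas9 aimed at NUAK2, and both groups were grown in medium with serum. NUAK2 encodes a serine/threonine kinase of the AMPK-related family. The targeted cells were made with a pair of lentiviral vectors carrying GFP and mCherry, sorted for both colours as single cells and grown as clones. The labels name no clone for these libraries and no control vector for the WT cells, so loss of NUAK2, the vectors and the history of a clone cannot be told apart. Nothing in the labels says that libraries came from separate cultures, and p-values therefore measure only the spread between these libraries, which may be technical. In bulk RNA, a smaller share of cells that express a gene and less RNA of that gene per cell cannot be told apart.

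Cholesterol is built from acetyl-CoA through mevalonate, isoprenoid units, squalene and lanosterol, and fatty acids are built from the same acetyl-CoA by carboxylation, chain synthesis, elongation and desaturation. Many enzymes of both routes are transcribed under SREBP factors, which the escort protein SCAP carries from the endoplasmic reticulum to the Golgi when sterols are low, and which INSIG proteins hold back when sterols are high. AMPK, the namesake kinase of the family, is known for phosphorylating and inhibiting acetyl-CoA carboxylases. Glioblastoma cells are known for a high demand for both cholesterol and unsaturated fatty acids.

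Total counts per library ran from 29648445 to 55574081. NUAK2 itself had normalized counts (counts put on a common scale, that of the mean effective library size) of 1926, 1457 and 1580 in WT and 799, 961 and 849 in NUAK2-CR. It was 52.6% of the WT mean, with a log2 fold change of -0.93 ± 0.11 (SE), so transcript remained and its level checks the labels only in part. All 8 astroglial and glioma markers were expressed, but 6 were lower in NUAK2-CR, GFAP with a log2 fold change of -2.56 among them, and their summed normalized counts ran from 333360 to 369315 in WT and from 147179 to 154108 in NUAK2-CR. Of 15 markers of other cell types, MOG and AIF1 had 0 counts in every library, 3 were called higher (SNAP25, PECAM1, VWF) and 3 lower (MBP, CD68, KRT8), with sums of 3057 to 3229 in WT and 2536 to 2815 in NUAK2-CR. The part of these differences in the results on lipid genes was not tested.

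In NUAK2-CR cells the desaturases SCD, FADS1 and FADS2 were higher, and so were the regulators SREBF1, SREBF2 and SCAP, while several enzymes of cholesterol synthesis were lower, above all HSD17B7, NSDHL and HMGCS1. Every one of the 30 members passed the filter on low counts, and 23 of them (76.7%) were called, meaning an adjusted p under 0.05 in edgeR's quasi-likelihood test over 14873 genes. Of all tested genes 54.5% were called, and 61.5% of the 10119 genes at least as abundant as the least abundant member. Calls were 12 higher (40.0%) and 11 lower (36.7%), against 26.3% higher and 28.2% lower over all tested genes. The normalized counts of the groups did not overlap for 23 members, or 76.7%, against 61.4% of all tested genes. The median log2 fold change was -0.11 over members and -0.01 over all tested genes, and the median of its absolute value was 0.42 and 0.37. Thus the members moved in both directions, with a typical size close to that of other genes.

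Larger changes were fewer. An absolute log2 fold change over 0.5 was reached by 10 called members (6 lower, 4 higher), against 32.5% of all tested genes, and over 1 by 4 members, against 13.9%. The study's own threshold, an absolute log2 fold change over 2, was passed by ACACA alone, against 4.72% of all tested genes.

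**Figure D1:**
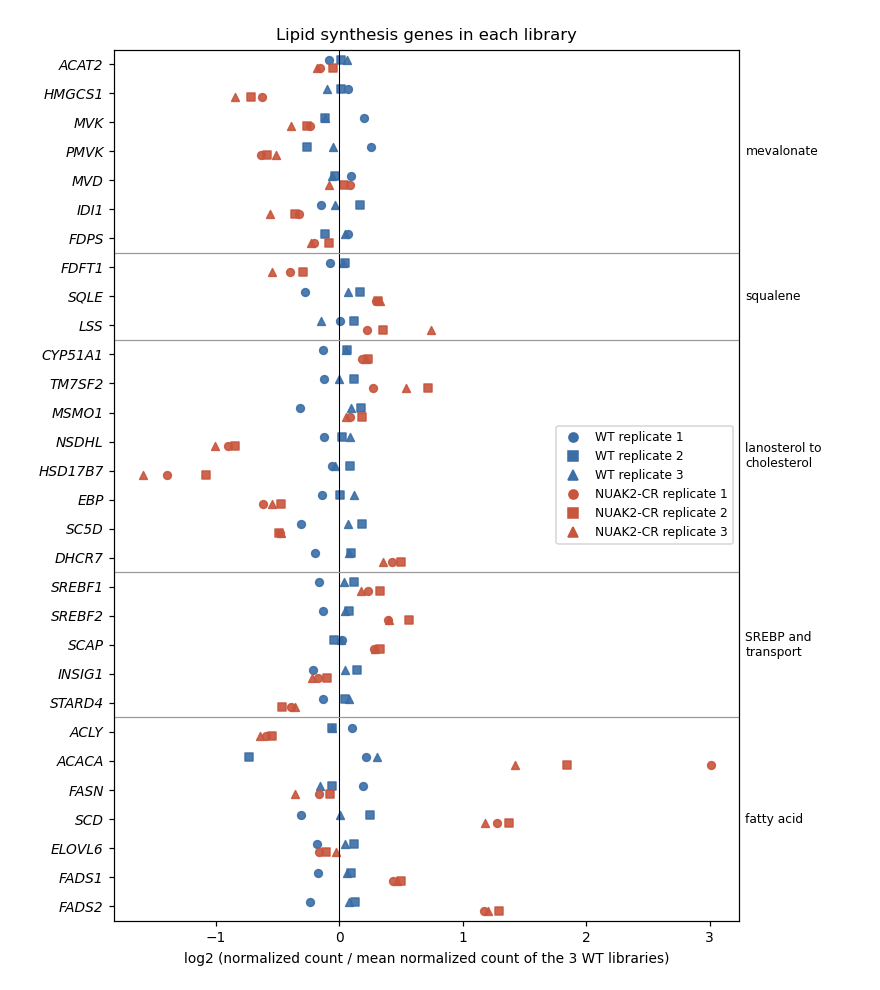
Each point is 1 library, placed by the log2 ratio of its normalized count to the mean of the 3 WT libraries (x axis), for the 30 members in order of role (y axis). SCD and FADS2 lie to the right of every WT point, HMGCS1, NSDHL and HSD17B7 to the left, and the 3 NUAK2-CR points of ACACA are the most scattered.

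Since SREBP-driven genes are read from promoters that combine a sterol response element with NF-Y and SP1 sites, the RefSeq promoters of the members (GRCh38.p14, 250 bases before to 50 after the start) were searched on both strands. A promoter was given for 26 members, and only 1 start of each gene was used. For MVK, PMVK and ACLY the stretch printed below lies inside the annotated span of the gene, so starts further out were not searched. The core of the sterol response element, TCACNCCAC, was found in 1 of the 26 (SREBF2), against 1.15% of 27305 promoters and 1.09% of the 11650 that belong to tested genes. Only this exact string was searched, within 300 bases, so variant or more distant elements would be missed. A promoter without a match may still hold such an element. The NF-Y box CCAAT was found in 17 of 26 (65.4%), against 35.7% of all promoters and 36.7% of those of tested genes. The SP1 box GGGCGG was found in 24 of 26 (92.3%), against 44.6% and 68.5%, and the E-box CACGTG in 4 of 26 (15.4%), against 7.43% and 9.84%. Motifs were searched separately, so matches may overlap, as a pair of CCAAT boxes does in NSDHL. A match is a description of letters and not a site of binding.

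NF-Y boxes were present on both sides of the comparison. They were found in 8 of 10 promoters of members called lower, in 5 of 11 of those called higher and in 4 of 5 of those not called. By role, they were found in 7 of 8 promoters of the lanosterol to cholesterol steps and in 2 of 6 of the fatty acid genes. MVK and NSDHL held 5 each, and FADS2 held none of the 4 motifs. A set of 7 stretches of 120 bases is shown because they carry these contrasts. SREBF2 holds the single match to the sterol response element core, and MVK shows 4 of its CCAAT boxes. HSD17B7 and ACLY fell, and SCD rose. MSMO1, with 3 of its 4 CCAAT boxes, was not called. PMVK fell and held no CCAAT box in the promoter searched. Sequences are from RefSeq, GRCh38.p14, written 5′ to 3′ along the strand of the gene, with the sterol response element core and CCAAT (or ATTGG, its reverse complement) in capitals.
SREBF2, chr22:41832972-41833091, plus strand: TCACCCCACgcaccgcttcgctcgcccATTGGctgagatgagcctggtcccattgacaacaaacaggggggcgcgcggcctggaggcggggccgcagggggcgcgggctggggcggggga
MVK, chr12:109573637-109573756, plus strand: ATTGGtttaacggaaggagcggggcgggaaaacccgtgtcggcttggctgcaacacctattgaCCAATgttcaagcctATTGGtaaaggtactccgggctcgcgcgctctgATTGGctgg
HSD17B7, chr1:162790582-162790701, plus strand: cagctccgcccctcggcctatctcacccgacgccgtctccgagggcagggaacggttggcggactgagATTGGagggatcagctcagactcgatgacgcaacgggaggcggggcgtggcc
ACLY, chr17:41919023-41919142, minus strand: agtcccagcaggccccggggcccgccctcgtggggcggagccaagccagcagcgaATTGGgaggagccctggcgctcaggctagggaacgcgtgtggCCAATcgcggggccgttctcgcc
MSMO1, chr4:165327530-165327649, plus strand: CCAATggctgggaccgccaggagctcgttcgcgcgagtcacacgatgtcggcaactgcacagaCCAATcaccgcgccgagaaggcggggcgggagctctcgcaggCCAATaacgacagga
SCD, chr10:100347004-100347123, plus strand: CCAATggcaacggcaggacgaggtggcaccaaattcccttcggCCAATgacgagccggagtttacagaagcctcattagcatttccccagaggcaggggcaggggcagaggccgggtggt
PMVK, chr1:154936720-154936839, minus strand: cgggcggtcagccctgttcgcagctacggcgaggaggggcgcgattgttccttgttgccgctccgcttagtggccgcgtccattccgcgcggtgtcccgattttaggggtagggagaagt

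**Figure D2:**
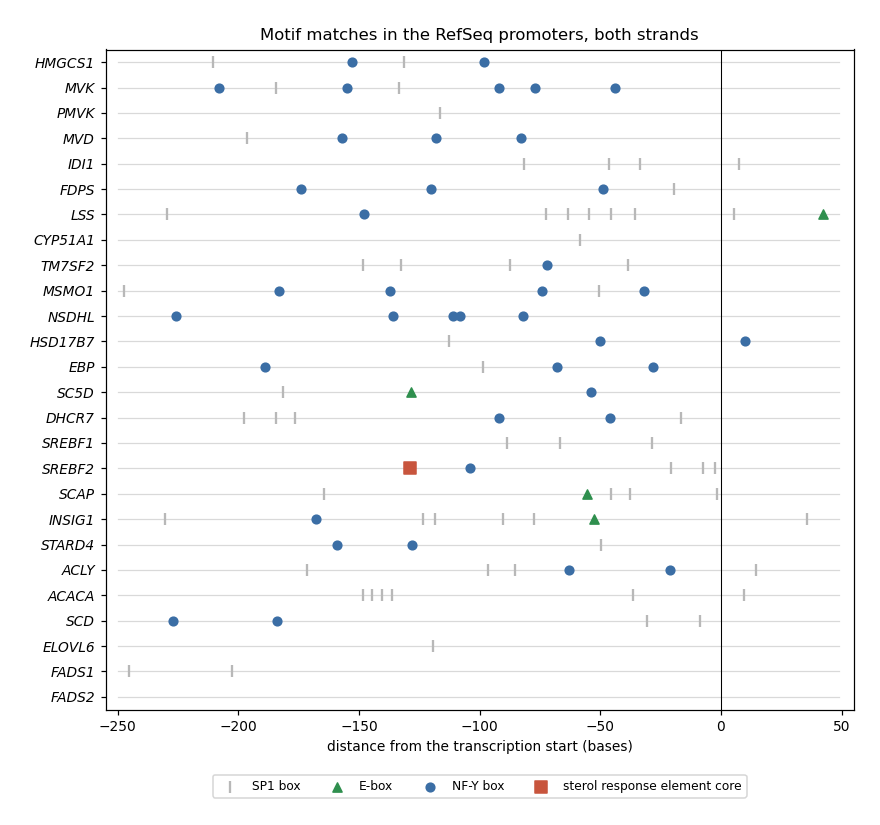
Matches of the 4 motifs on either strand in the promoters of 26 members, by distance from the transcription start in bases (x axis) and by gene (y axis). The single sterol response element core is in SREBF2, CCAAT boxes crowd the promoters of MVK, MSMO1 and NSDHL, and FADS2 has no match.

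Of the 7 genes of the mevalonate and isoprenoid steps, 4 fell, none rose and 3 did not pass the test, with a median log2 fold change of -0.30. The called share was 57.1%, near the 54.5% of all tested genes, of which 28.2% were called lower and 26.3% higher. HMGCS1 (gene 3157, chr5:43287470-43313412, minus strand) makes HMG-CoA, the precursor of mevalonate. Its normalized counts were 5752, 5519 and 5112 in WT and 3531, 3325 and 3037 in NUAK2-CR. All NUAK2-CR libraries lay below all WT libraries, and the log2 fold change was -0.73 ± 0.08 (SE, adjusted p = 6.04e-06). PMVK (gene 10654, chr1:154924740-154942658, minus strand), which adds the phosphate after mevalonate kinase has acted, had 1914, 1333 and 1546 normalized counts in WT against 1031, 1064 and 1122 in NUAK2-CR. The groups did not overlap, although WT replicate 1 stood above the other WT libraries, and the log2 fold change was -0.58 ± 0.12 (adjusted p = 0.00107).

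IDI1, the isomerase of the isoprenoid unit, fell by 0.41 on the log2 scale (adjusted p = 0.00866), and MVK, mevalonate kinase, by 0.30 (adjusted p = 0.0278). The call of MVK depended on single libraries. Without WT replicate 1 its log2 fold change was -0.18 (adjusted p = 0.103), and without NUAK2-CR replicates 1, 2 or 3 the adjusted p was 0.0562, 0.0619 and 0.110. ACAT2, which condenses acetyl-CoA, MVD, the decarboxylase of the route, and FDPS, farnesyl diphosphate synthase, were not called, with log2 fold changes of -0.13, 0.01 and -0.17. Their 95% intervals were -0.28 to 0.03, -0.16 to 0.19 and -0.33 to -0.01. FDPS had an adjusted p of 0.0659, which was 0.0218 without WT replicate 2. ACAT2 shares 17.2% of its exon bases with TCP1 on the opposite strand, and TCP1 was lower as well (log2 fold change -0.33). The authors name default parameters for the counting but no strand setting. How reads of the shared bases were assigned, and their part in the value of ACAT2, was not tested.

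The 3 genes of the squalene and lanosterol steps were all called, beside 54.5% of all tested genes, but did not move together. FDFT1, squalene synthase and the first enzyme committed to sterols, had 7349, 8004 and 7916 normalized counts in WT against 5891, 6322 and 5319 in NUAK2-CR, without overlap, and fell by 0.41 on the log2 scale (adjusted p = 0.000661). The enzymes that follow it were higher. SQLE, squalene epoxidase, had 3297, 4497 and 4199 in WT and 4915, 4958 and 5025 in NUAK2-CR, with a log2 fold change of 0.31 ± 0.10 (adjusted p = 0.0168, and 0.0542 without NUAK2-CR replicate 3). Without WT replicate 1, its lowest library, the log2 fold change of SQLE was 0.20 (adjusted p = 0.009). LSS, lanosterol synthase, had 1481, 1600 and 1331 in WT and 1719, 1885 and 2465 in NUAK2-CR, with a log2 fold change of 0.46 ± 0.12 (adjusted p = 0.00625). NUAK2-CR replicate 3 stood above the other NUAK2-CR libraries for LSS, and without it the log2 fold change was 0.29 (adjusted p = 0.0353).

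Of the 8 genes between lanosterol and cholesterol, 4 fell, 3 rose and 1 was not called, and the largest falls among all 30 members were here. HSD17B7 (gene 51478, chr1:162790702-162812823, plus strand), the keto-sterol reductase of C4 demethylation, had normalized counts of 794, 877 and 808 in WT and 315, 392 and 274 in NUAK2-CR. The NUAK2-CR mean was 39.6% of the WT mean, with a log2 fold change of -1.34 ± 0.13 (adjusted p = 2.56e-06). NSDHL (gene 50814, chrX:152831063-152869729, plus strand), the decarboxylating dehydrogenase that acts just before it, had 1586, 1753 and 1834 in WT and 926, 960 and 857 in NUAK2-CR, which gave a log2 fold change of -0.91 ± 0.09 (adjusted p = 2.04e-06). For both genes every NUAK2-CR library lay below every WT library by more than the spread within either group. A copy of the HSD17B7 transcript with 98.62% identity lies on chromosome 10 (the pseudogene HSD17B7P2), and its counts were 61, 44 and 31 in WT and 15, 10 and 29 in NUAK2-CR, far below those of HSD17B7.

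EBP (gene 10682, chrX:48521808-48528716, plus strand), the sterol isomerase, had 1957, 2158 and 2336 normalized counts in WT against 1404, 1547 and 1471 in NUAK2-CR, for a log2 fold change of -0.54 ± 0.08 (adjusted p = 0.000125). SC5D, the desaturase that follows EBP, fell by 0.48 on the log2 scale (adjusted p = 0.00246), with NUAK2-CR values between 1673 and 1694 and WT values between 1893 and 2667. So NSDHL, HSD17B7, EBP and SC5D, which act in sequence within this stretch, were all lower. Other enzymes of the same stretch were higher. TM7SF2 (gene 7108, chr11:65111872-65116230, plus strand), a sterol reductase that saturates the C14 double bond, had 442, 522 and 479 in WT and 583, 790 and 700 in NUAK2-CR, which gave a log2 fold change of 0.53 ± 0.12 (adjusted p = 0.00302). DHCR7, which saturates the last ring double bond, had a log2 fold change of 0.43 ± 0.08 (adjusted p = 0.000963).

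CYP51A1, the lanosterol demethylase, was higher by 0.21 on the log2 scale (adjusted p = 0.0239), the smallest of the called changes, and the adjusted p was 0.0824 without NUAK2-CR replicate 2 and 0.0756 without NUAK2-CR replicate 3. MSMO1, the C4 methyl oxidase, acts next to NSDHL but was not called. It had 2490, 3513 and 3311 normalized counts in WT against 3301, 3525 and 3227 in NUAK2-CR, so the groups overlapped, and the 95% interval of its log2 fold change was -0.12 to 0.35.

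Over the 18 genes of these sterol steps, 9 fell, 5 rose and 4 were not called, and the median log2 fold change was -0.24. The called share was 77.8%, to be read beside the 54.5% of all tested genes given above.

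The regulators of the pathway were mostly higher. SREBF2 (gene 6721, chr22:41833105-41907305, plus strand) encodes the SREBP factor tied most closely to cholesterol genes, and had 7212, 8339 and 8175 normalized counts in WT against 10400, 11716 and 10483 in NUAK2-CR. The groups did not overlap, and the log2 fold change was 0.46 ± 0.08 (adjusted p = 0.000315). SCAP (gene 22937, chr3:47413681-47477127, minus strand), the escort of SREBP, had 3566, 3403 and 3533 in WT and 4263, 4410 and 4286 in NUAK2-CR, with a coefficient of variation of 2.45% within WT and 1.84% within NUAK2-CR. Its rise of 0.30 ± 0.06 on the log2 scale (adjusted p = 0.00133) was therefore small but well outside the spread of the libraries.

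SREBF1 (gene 6720, chr17:17811334-17836986, minus strand), whose product drives fatty acid genes, had 5778, 7036 and 6653 in WT and 7630, 8139 and 7354 in NUAK2-CR. The groups did not overlap, and the log2 fold change was 0.25 ± 0.08 (adjusted p = 0.0206, and 0.0991 without NUAK2-CR replicate 2). INSIG1 (gene 3638, chr7:155297878-155310235, plus strand), which retains SREBP in the endoplasmic reticulum and is itself an SREBP target, had 5131, 6572 and 6131 in WT and 5266, 5556 and 5111 in NUAK2-CR. Here the groups overlapped, and the log2 fold change of -0.16 ± 0.09 was not called (adjusted p = 0.141, 95% interval -0.35 to 0.03). That outcome rested on WT replicate 1, the lowest WT library for INSIG1, since without it the log2 fold change was -0.25 (adjusted p = 0.00201). STARD4, a carrier of cholesterol between membranes, fell by 0.40 on the log2 scale (adjusted p = 0.00131).

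The fatty acid genes held the largest rises. SCD (gene 6319, chr10:100347233-100364826, plus strand), stearoyl-CoA desaturase, which makes oleate from stearate, had normalized counts of 27423, 40429 and 34140 in WT and 82501, 88024 and 77221 in NUAK2-CR. The lowest NUAK2-CR library was well above the highest WT library, with means of 33997 ± 6505 and 82582 ± 5402 (SD, n = 3), a log2 fold change of 1.28 ± 0.12 and an adjusted p of 1.68e-06. FADS2 (gene 9415, chr11:61816203-61867354, plus strand), the delta-6 desaturase of polyunsaturated fatty acids, had 10350, 13319 and 12823 in WT and 27363, 29898 and 28091 in NUAK2-CR. The NUAK2-CR mean of FADS2 was 2.34 times the WT mean, with a log2 fold change of 1.23 ± 0.09 (adjusted p = 3.21e-07).

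FADS1, the delta-5 desaturase beside FADS2 on chromosome 11, had 8023, 9679 and 9479 in WT and 12252, 12837 and 12569 in NUAK2-CR, which gave a log2 fold change of 0.47 ± 0.08 (adjusted p = 0.00027). The exons of FADS1 and FADS2 share 490 bases on opposite strands, which is 4.79% of the exon bases of FADS1 and 4.64% of those of FADS2. How reads of these bases were assigned may affect both counts, which was not tested. All 3 desaturases rose, and WT replicate 1 was the lowest library of each.

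Among the other fatty acid genes 1 fell, 1 rose and 2 were not called. Of all 7 fatty acid genes 57.1% were called higher and 14.3% lower, beside 26.3% and 28.2% of all tested genes. ACLY (gene 47, chr17:41866917-41930545, minus strand), which splits citrate to supply acetyl-CoA to both routes, had 21783, 19421 and 19473 normalized counts in WT against 13419, 13905 and 12953 in NUAK2-CR, and fell by 0.59 on the log2 scale (SE 0.07, adjusted p = 1.71e-05). FASN, fatty acid synthase, had 30027, 25294 and 23569 in WT and 23443, 24996 and 20539 in NUAK2-CR. The groups overlapped, and the log2 fold change of -0.19 (95% interval -0.41 to 0.02) was not called, with an adjusted p of 0.112, or 0.0493 without WT replicate 3. ELOVL6, which elongates palmitate to stearate, was not called either, at -0.10 (95% interval -0.28 to 0.08, adjusted p = 0.341, and 0.0249 at -0.17 without WT replicate 1).

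ACACA (gene 31, chr17:37084992-37406836, minus strand), acetyl-CoA carboxylase alpha, the committed step of fatty acid synthesis, had only 124, 64.6 and 132 normalized counts in WT against 862, 384 and 288 in NUAK2-CR. The groups did not overlap and the log2 fold change was 2.25 ± 0.37 (adjusted p = 0.000241), but the NUAK2-CR libraries had a coefficient of variation of 60.2%. Without NUAK2-CR replicate 1 the log2 fold change was 1.66 and without WT replicate 2 it was 1.99. Per kilobase of exon ACACA was the lowest of the 30 members in both groups, at 8.22 normalized counts in WT against 39.2 in NUAK2-CR. In hg38 the whole ACACA transcript also matches the alternate contig 17_KI270857v1_alt at 99.97% identity, and 88.2% of the LSS transcript matches 21_KI270872v1_alt at 100%. On the primary chromosomes, a copy of 99.9% of the SCD transcript lies on chromosome 17 at 95.72% identity, and one of the whole CYP51A1 transcript on chromosome 13 at 95.34%. Whether the authors' copy of hg38 held alternate contigs is not given in the sources used here, and the part of any of these copies in the values of ACACA, LSS, SCD and CYP51A1 was not tested. Leaving out ACACA and LSS, 10 of 28 members were called higher and 11 lower.

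**Figure D3:**
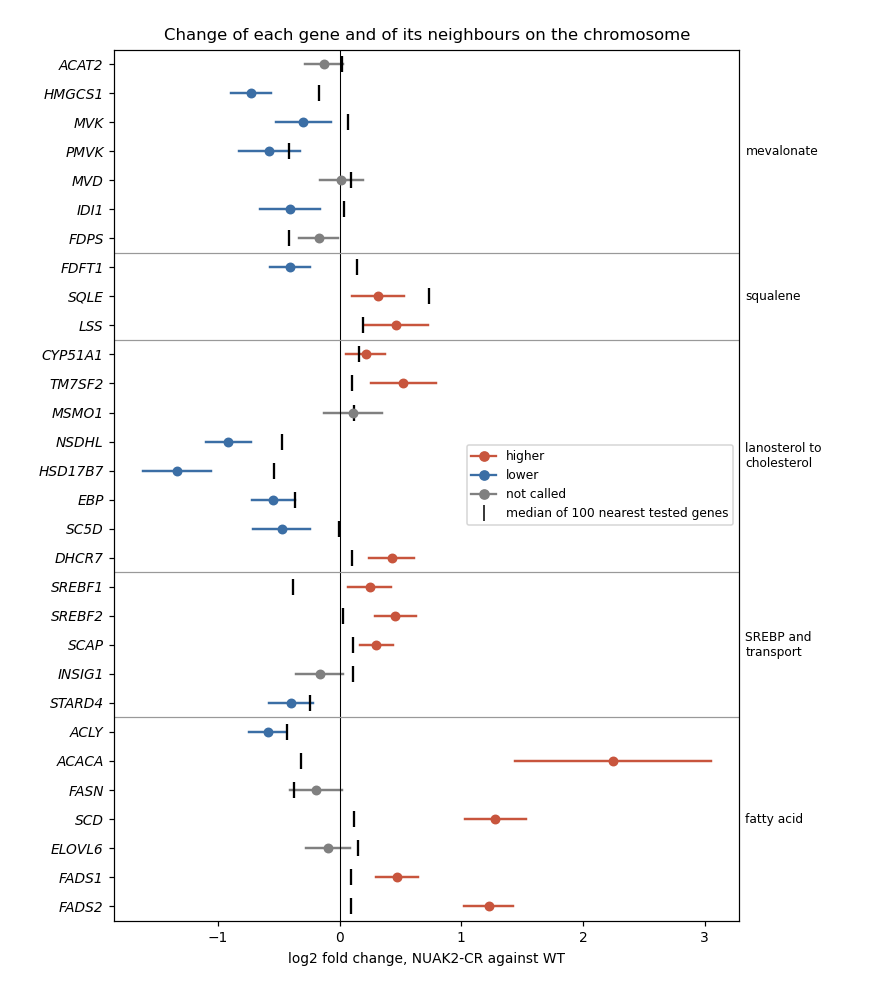
Log2 fold change of each member, NUAK2-CR against WT (x axis), with its 95% interval, coloured by call, beside a vertical tick for the median change (log2) of the 100 tested genes nearest to it on the chromosome. SCD and FADS2 lie far to the right of their ticks and HSD17B7 far to the left, while SQLE lies to the left of a tick at 0.73.

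To take in the neighbourhood of each gene, each member was set beside the median change (log2) of the 100 tested genes nearest to it. That local median was under -0.25 at 9 of the 30 members (30%), against 24.7% of all tested genes with a position. Of those 9 members 5 were called lower, 2 higher and 2 were not called, and the other 6 lower members lay elsewhere. After the local median was subtracted, all 11 lower members kept a negative value and 11 of the 12 higher members a positive one. CYP51A1 was among these 11 at only 0.05, from 0.21 ± 0.07. No such share over all called genes is given here, so these counts only describe the members. HSD17B7 was then at -0.80, HMGCS1 at -0.56, NSDHL at -0.44, SCD at 1.16 and FADS2 at 1.13. The values shrank to -0.16 for PMVK and ACLY and to -0.18 for EBP, whose neighbours were lower as well. SREBF1 moved from 0.25 to 0.63 where the local median was -0.38, and SQLE turned from 0.31 to -0.42 where it was 0.73.

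Compared per kilobase of exon, several members changed place in the order of levels. SCD had the highest level of the 30 in both groups, with 6482 normalized counts per kilobase in WT and 15745 in NUAK2-CR. FADS2 went from rank 9 in WT, at 1153 normalized counts per kilobase, to rank 2 in NUAK2-CR, at 2696, while PMVK went from rank 5 to 12 and EBP from rank 8 to 15. ACLY stood at 3884 and 2578 and FASN at 2821 and 2467. In NUAK2-CR the levels of FADS2, ACLY and FASN were neighbours in this order, each pair differing by less than the larger of their SDs. The members together took 0.465% to 0.504% of all counts in WT libraries and 0.616% to 0.668% in NUAK2-CR libraries. Without SCD those ranges were 0.386% to 0.398% and 0.407% to 0.434%, so most of the gain was SCD. The 3 desaturases together took 0.124% to 0.168% in WT and 0.318% to 0.347% in NUAK2-CR.

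**Figure D4:**
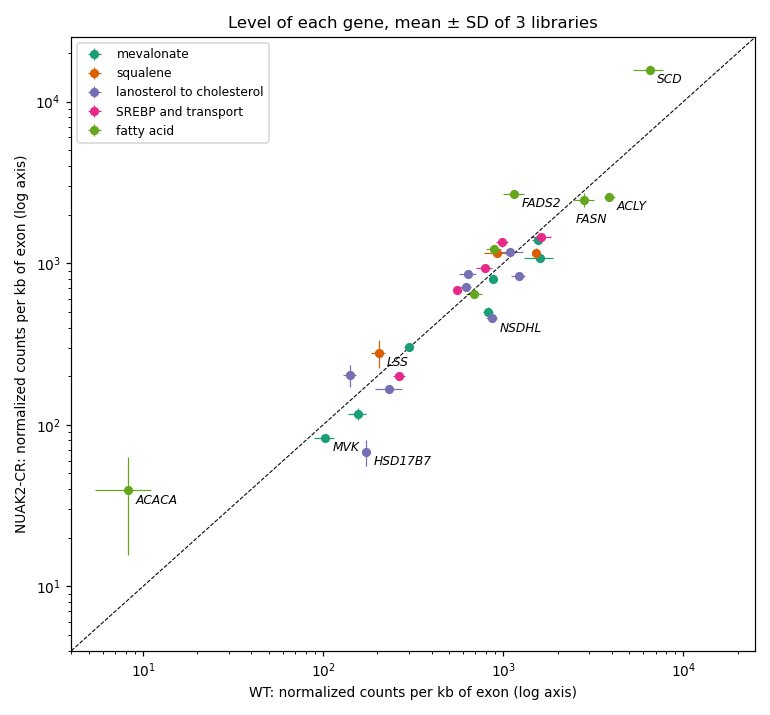
Level of each member per kilobase of exon in WT (x axis) and NUAK2-CR (y axis), as normalized counts on log axes, mean ± SD of 3 libraries, coloured by role, with a dashed line of equality. SCD and FADS2 lie above the line among the abundant genes, ACLY, NSDHL and HSD17B7 lie below it, and ACACA is apart at the low end with a long vertical error bar.

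The position of single libraries within their group recurred over the members. WT replicate 1 was the lowest WT library for 20 of the 30 members, against 37.7% of all tested genes, and NUAK2-CR replicate 2 was the highest NUAK2-CR library for 19 members, against 33.2% of all tested genes. Values with single libraries left out are given above for some members only. Without WT replicate 1, PMVK was at -0.42, SC5D at -0.60 and DHCR7 at 0.35, all still called. With all libraries these log2 fold changes were -0.58, -0.48 and 0.43.

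Genes of neighbouring steps gave a background for the members. Of 79 such genes 74 were tested and 42 of those (56.8%) were called, close to the 54.5% of all tested genes. Calls were 26 higher (35.1%) and 16 lower (21.6%), against 26.3% and 28.2% of all tested genes. The median log2 fold change of these genes was 0.03. The count of lower genes depended on WT replicate 1, without which it was 25. Among genes of SREBP processing and turnover, INSIG2, MBTPS1, FBXW7, RNF139 and UBE2G2 rose and the protease gene MBTPS2 fell. The log2 fold changes of these genes lay between -0.35 and 0.57. The isoprenoid branches, which draw on the same mevalonate, had 5 lower (45.5%) and 1 higher (9.09%) of 11. Less the local median, 5 of the 11 were positive and 6 negative.

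In the group of sterol uptake, trafficking and esterification 4 of 12 genes rose (33.3%) and 2 fell (16.7%), beside 26.3% and 28.2% of all tested genes. NPC2, a lysosomal cholesterol carrier, rose with a log2 fold change of 1.24 ± 0.09 (adjusted p = 2.02e-07), and GRAMD1C, a sterol transfer protein, fell by 1.17 on the log2 scale (adjusted p = 0.00458). GRAMD1C had few counts, 157, 94 and 67 in WT and 40, 22 and 38 in NUAK2-CR. Of the 5 tested genes of oxysterol and sterol turnover 2 rose (40.0%) and 2 fell (40.0%), to be read beside the same shares of all tested genes. CH25H, which makes 25-hydroxycholesterol, had few counts but rose by 1.94 (adjusted p = 5.84e-05), while EBPL fell by 0.56 and LBR by 0.49. The neighbours of EBPL and LBR were lower as well, with local medians of -0.46 and -0.42. After subtraction of the local median EBPL was at -0.09 and LBR at -0.07, while CH25H was at 1.81. Of the LXR and efflux genes 2 of 4 tested rose, the cholesterol exporter ABCA1 by 0.79 and MYLIP, a ligase that marks lipoprotein receptors for degradation, by 0.95. Another exporter, ABCG1, had 8, 12 and 12 counts in WT against 0 in each NUAK2-CR library, which allows up to 3 counts per library, and was too low to be tested, as were ME1, CYP7B1, ACSL6 and PLIN2.

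On the fatty acid side, 4 of 16 supply, elongation and desaturation genes rose (25.0%) and 2 fell (12.5%). Over all tested genes 26.3% were called higher and 28.2% lower. ACACB, the mitochondrial acetyl-CoA carboxylase, rose to 3.05 times its WT mean (adjusted p = 9.23e-08), with 628, 549 and 482 normalized counts in WT against 1690, 1565 and 1802 in NUAK2-CR. DGAT2, which completes triglycerides, rose by 1.58 (adjusted p = 8.70e-06). Of the 10 tested genes of fatty acid activation and storage, 4 rose and 3 fell.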

How the data were processed

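RNA-sequencing covered 3 WT and 3 NUAK2-CR libraries of U251 cells, made with a stranded mRNA kit and sequenced as paired ends. The authors deposited raw counts per gene, made with featureCounts from reads that Trimmomatic had trimmed and HISAT2 had placed on hg38, all at default parameters. Beyond these defaults, the annotation and the strand setting are not named in the sources used here. Of 28395 gene identifiers 27745 were matched to a symbol through the RefSeq table of GRCh38.p14.

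Counts were tested in R 4.3.3 with edgeR 4.0.16 (filterByExpr, TMM, glmQLFit, quasi-likelihood F test, two-sided) with Benjamini-Hochberg adjustment over 14873 genes and a prior count of 0.125; the SE is the absolute log2 fold change over the square root of F. The authors used DESeq2, which was an alternative here. The test was checked on simulated data. Levels per kilobase used the union of exons of GENCODE release 44, and copies of at least 95% identity over at least 20% of a transcript were sought with minimap2 2.31. Printed promoter stretches hold no annotated UTR.

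The members and lists were chosen with earlier results of these data known. Values per library are given for members called with an absolute log2 fold change over 0.5 and for SREBF1, SREBF2, SCAP and INSIG1; of the other pathway genes, those called with one over 1 are named. Some results on these other genes are not reported here. The per-library values of FDFT1, SQLE, LSS, MSMO1, FADS1 and FASN, and the names ABCA1, MYLIP, ABCG1, EBPL, LBR and the genes of SREBP processing, were added after their values had been seen. Counts per library were 29648445 to 55574081, and limits from counts cover counting error only. Pairs of libraries of the same group differed by more than sampling noise, so none was counted as a duplicate. The alternatives were DESeq2 1.42.0, limma-voom 3.58.1, RLE and library-size scaling, no filter, at least 10 counts in every library, a replicate block, a prior count of 2, other fold thresholds, each library left out, and subtraction of the local median of 100 genes.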

Additional observations from a re-analysis of the deposited data

How the results depend on the processing

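Over 14 settings with a test, 404 of 420 values of members kept their direction and their side of the threshold, 8 lost the call, 4 gained it and 4 changed sign. Of the 23 called members 19 kept call and direction in all 14; the others were MVK, SQLE, CYP51A1 and SREBF1, each lost when single libraries were left out. Members called higher numbered 12, or 4 with an absolute log2 fold change over 0.5 and 3 over 1, and those called lower 11, 6 and 1. With libraries left out in turn, higher members ranged from 10 to 12, lower members from 10 to 12, members past an absolute log2 fold change of 2 from 0 (without WT replicate 2 or NUAK2-CR replicate 1) to 1, and lower genes of neighbouring steps from 15 to 25. With at least 10 counts in every library, 339 genes in all passed the fold of 2, against 702. With libraries left out, the log2 fold changes of MVD and MSMO1, which were not called, ranged from -0.0171 to 0.0706 and from -0.0196 to 0.2089 and so changed sign (MVD without WT replicates 2 and 3 and NUAK2-CR replicate 1, MSMO1 without WT replicate 1), and SQLE was at -0.42 less the local median. The cause was not tested. Libraries share a replicate number but were not paired (correlations of same-numbered deviations 0.0428, -0.0352 and 0.0478), and with the replicate block 12 members were called higher and 11 lower, and 18 genes of neighbouring steps lower, against 16 without it. No scaling moved the median of all genes by over 0.1. Depth as a limit on single members was not tested.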
